A study of Mus musculus with 12 samples.

Results

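Mouse spleen erythroblasts from the 2 single knockouts of the series were set directly against each other. The 3 arrays labelled E2f8 KO were compared with the 3 labelled Rb KO, which are 6 of the 12 arrays, over all 12980 genes tested. The arrays were chosen by their titles, and no measured value entered the choice. The other 6 arrays are 3 of wild type mice (WT) and 3 of mice with both knockouts (DKO). All mice were 3 months old, and RNA came from spleen cells sorted as positive for Ter119, an erythroid surface antigen, with high CD71, the transferrin receptor. The labels call the 3 arrays of each group biological replicates, which are named below by label and number (Rb KO 1, for example). P-values therefore measure the spread between these arrays. The sources used here give neither strain nor sex, nor the deleted part of each gene or how it was deleted. "Higher" and "lower" below always mean the arrays labelled E2f8 KO relative to those labelled Rb KO, on the log2 scale of the deposited signals. Errors are standard errors of the difference from limma, with n = 3 arrays per group.

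The retinoblastoma protein, encoded by Rb1, binds activating E2F transcription factors and holds back the genes they drive, many of which serve the step from G1 into S phase. E2f8 and its close relative E2f7 are atypical E2Fs, which bind DNA without a DP partner and repress many of the same genes. Erythroblasts divide a few times while they fill with hemoglobin, then leave the cell cycle, condense and expel the nucleus. Loss of Rb in mice is known to disturb this final maturation. A direct comparison of the single knockouts asks at which genes erythroblasts lacking one repressor differ from those lacking the other.

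The signals of the targeted genes went against the labels. For Rb1 the log2 signals were 11.74, 11.68 and 11.72 under the E2f8 KO label and 12.53, 12.33 and 12.39 under the Rb KO label. All 3 arrays labelled E2f8 KO lay below all 3 labelled Rb KO, with a difference of -0.71 ± 0.11 (adjusted p = 0.00165), or 1.63-fold. In the WT arrays Rb1 stood at 13.02, 12.74 and 12.71 and in the DKO arrays at 12.23, 11.98 and 12.17. For E2f8 they were 12.89, 12.81 and 12.74 under the E2f8 KO label and 12.36, 12.52 and 11.68 under the Rb KO label. The difference was 0.63 ± 0.19 (adjusted p = 0.0283), higher under the E2f8 KO label and again with no overlap. WT arrays had E2f8 at 12.28, 11.70 and 11.88 and DKO arrays at 13.13, 13.17 and 13.09. The E2f8 difference is less secure than that of Rb1: without Rb KO 3 it was 0.37 (adjusted p = 0.101), and it also missed the threshold without any 1 of the arrays labelled E2f8 KO, at 0.59, 0.63 and 0.66. Both genes have a single probe set here. Its place relative to a deleted part is not known, and outside that part it checks nothing. Every direction below therefore rests on the labels as given.

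A pair of genes lie inside Rb1 in the RefSeq annotation, and both were called, in opposite directions. The microRNA gene Mir687 had signals of 9.70, 9.47 and 9.74 under the E2f8 KO label and 7.90, 7.34 and 6.99 under the Rb KO label, a difference of 2.23 ± 0.28 (adjusted p = 0.000545). Lpar6, a receptor for lysophosphatidic acid, had 5.77, 6.26 and 6.12 under the E2f8 KO label and 6.55, 8.01 and 8.44 under the Rb KO label, a difference of -1.62 ± 0.36 (adjusted p = 0.00691). Mir687 was thus higher and Lpar6 lower where the Rb1 signal was lower, and neither group overlapped the other. The measured genes next to Rb1 (Rcbtb2, Itm2b and Med4) and to E2f8 (Zdhhc13, Csrp3 and Dbx1) were not called, with differences from -0.32 (Zdhhc13) to 0.13 (Csrp3). These neighbours were named for their position.

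**Figure D1:**
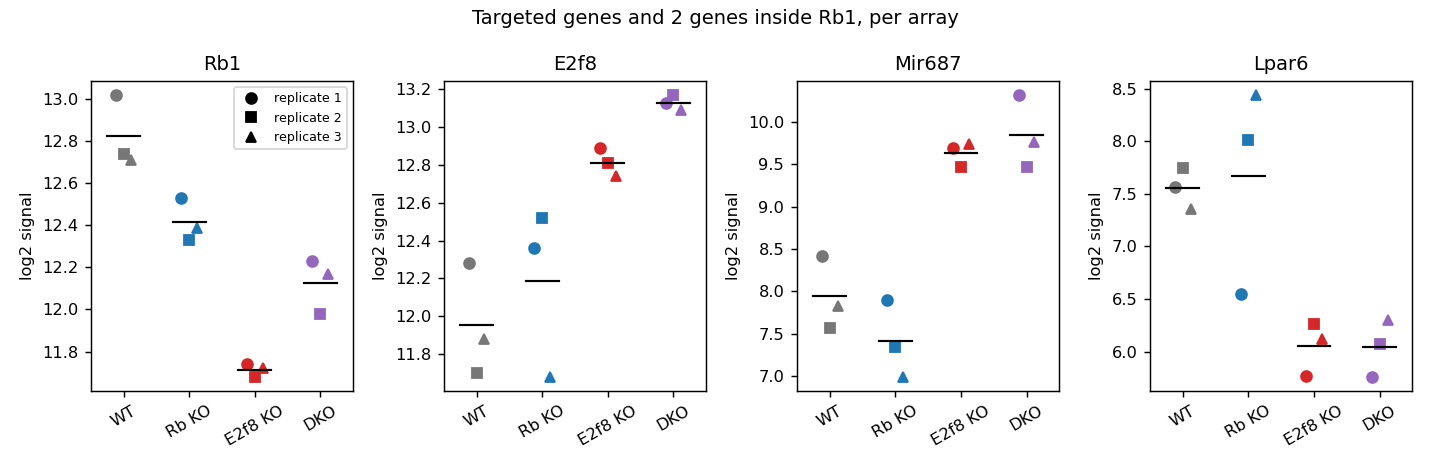
Log2 signal (vertical axis) of Rb1, E2f8 and the genes Mir687 and Lpar6, which lie inside Rb1, in each of the 12 arrays by genotype label. Symbols mark the replicate and bars the group mean. Rb1 is lowest in the 3 arrays labelled E2f8 KO, between 11.68 and 11.74, and E2f8 is higher there than in the 3 arrays labelled Rb KO.

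Some arrays stood apart from their group. Replicate 1 of Rb KO correlated across genes at r = 0.939 and 0.920 with the other arrays of its label, but at 0.956 to 0.965 with the 3 arrays labelled E2f8 KO. Replicates 2 and 3 of Rb KO correlated with each other at 0.988, and the arrays labelled E2f8 KO with each other at 0.990 to 0.992. Replicate 3 of E2f8 KO had Xist, the RNA of the inactive X chromosome, at 5.22 and the Y-linked gene Eif2s3y at 8.17, whereas the other 5 arrays had Xist at 11.30 or above and Eif2s3y at 3.32 or below. DKO 3 likewise had Xist at 3.99 and Eif2s3y at 7.82, unlike the other DKO and the WT arrays. DKO against WT, used beside several results, called 4952 genes with it and 4175 without it. Many list counts of the direct comparison are given with and without Rb KO 1 or E2f8 KO 3. Unless stated, single genes are given with all arrays only. So are the list counts of DKO against WT, the positions of WT and DKO and the overlap of the 2 comparisons.

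In the direct comparison 3601 of 12980 genes (27.7%) were called at an adjusted p under 0.05. Of these, 1580 (12.2%) were higher and 2021 (15.6%) lower in the arrays labelled E2f8 KO. The lower genes differed by more: 1023 (7.88%) were at least 2-fold lower and 504 (3.88%) at least 2-fold higher. The median difference was 0.821 (1.77-fold) among higher genes and -1.01 (2.01-fold) among lower genes. Past a log2 difference of 3 in size lay 54 lower and 2 higher genes. The median over all genes tested was 0.05. The 3 arrays of one label lay apart from those of the other at 47.5% of genes (24.7% higher, 22.8% lower), and 39.2% had an unadjusted p under 0.05. The number of calls depended on single arrays. It was 5023 without Rb KO 1, 1947 and 1903 without Rb KO 2 and 3, and 2036 and 2283 without E2f8 KO 1 and 2. Without Rb KO 1 and E2f8 KO 3 together it was 4415, with 1936 higher and 2479 lower. That last alternative was added after the data were seen.

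The sorted cells carried erythroid markers in every array. Slc4a1, the anion exchanger of the red cell membrane, had signals of 14.25, 14.22 and 14.18 against 14.18, 14.12 and 14.05, and Alas2, which makes the first step of heme synthesis in red cells, 14.04, 13.94 and 13.95 against 14.19, 14.08 and 14.25, with the arrays labelled E2f8 KO first. Of the 9 erythroblast markers measured, 4 were higher (44.4%, against 12.2% of all genes) and 0 lower. The mean signal of that list was 13.06, 13.02 and 12.92 under the E2f8 KO label and 12.87, 12.54 and 12.17 under the Rb KO label, highest in replicate 1 of the latter. The higher 4 were Epor, Gfi1b, Tfrc and Gata1. The count was 7 without Rb KO 1 and 2 without Rb KO 2 or 3 or E2f8 KO 1 or 2. The main adult globin genes were not analysed here.

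Markers of other spleen cells differed strongly between the groups, and this stands beside every gene group below. B cell markers were lower for 16 of 17 genes (94.1%, against 15.6% of all genes), with a median of -3.53. The mean signal of the list was 7.44, 7.63 and 7.77 under the E2f8 KO label and 9.51, 11.87 and 11.82 under the Rb KO label. Replicate 1 of Rb KO lay between its group and the arrays labelled E2f8 KO. Ms4a1, the B cell surface antigen CD20, had 6.90, 7.36 and 7.72 under the E2f8 KO label and 10.19, 12.13 and 11.99 under the Rb KO label, a difference of -4.11 ± 0.51 (adjusted p = 0.000508), and the arrays do not overlap. Fcer2a, the B cell receptor CD23 for IgE, differed by -4.35 ± 0.72 (adjusted p = 0.00182). Cd79a and Cd79b, the signalling chains of the B cell receptor, differed by -3.39 ± 0.48 (adjusted p = 0.00102) and -3.53 ± 0.46 (adjusted p = 0.000607). Mean signals of the 17 markers under the E2f8 KO label ran from 6.44 (Fcer2a) to 9.23 (Cd79b), where array medians lay between 6.22 and 6.35. No detection call was made. In bulk RNA, fewer cells of a type and less RNA per cell cannot be told apart. The part of B cell RNA in the other results was not tested.

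MHC class II genes, which present peptides on B cells, dendritic cells and macrophages, were lower for 8 of 9 genes (88.9%, median -2.54). The class II chain gene H2-Aa had 9.63, 10.08 and 10.07 under the E2f8 KO label and 11.77, 12.78 and 12.84 under the Rb KO label, a difference of -2.54 ± 0.35 (adjusted p = 0.000926). The invariant chain gene Cd74 had 10.71, 11.03 and 11.05 under the E2f8 KO label and 12.44, 13.64 and 13.54 under the Rb KO label, a difference of -2.28 ± 0.39 (adjusted p = 0.00198). Replicate 1 of Rb KO was the lowest of its group for both and yet above every array labelled E2f8 KO. T and NK cell markers were lower for 7 of 14 (11 without Rb KO 1), among them the T cell receptor partner genes Cd3g (-2.26) and Cd3e (-2.10) and the coreceptor gene Cd4 (-2.20). The list's mean signal was 6.38, 6.49 and 6.46 against 6.92, 7.68 and 7.62. Of plasma cell markers 3 of 9 (33.3%) were lower (5 without Rb KO 1), and of dendritic cell markers 3 of 8 (37.5%). All these shares are to be read against the 15.6% of all genes called lower. Cd209a, a lectin of dendritic cells, differed by -3.21 ± 0.30 (adjusted p = 0.000149), among the smallest p-values of lower genes.

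Macrophage markers moved less than those of B cells. Of 21 macrophage and monocyte markers 5 were lower (23.8%, against 15.6% of all genes) and 0 higher, with a median of -0.43 and a mean signal of 7.78, 7.93 and 7.90 against 8.15, 8.39 and 8.15. The count was 0 without E2f8 KO 3 and 0 without Rb KO 2. It was 1 without E2f8 KO 1 or 2, 2 without WT 1, Rb KO 3 or DKO 2, 3 without DKO 1 and 8 without WT 3. Vcam1, by which island macrophages hold erythroblasts, differed by -0.63 ± 0.22 (adjusted p = 0.0472). Lyz2, the lysozyme gene of myeloid cells, showed a difference of 0.06 ± 0.70 (adjusted p = 0.962). Calls on the remaining marker lists are to be read against the 27.7% of all genes. Of 8 megakaryocyte markers 1 was higher and 2 lower (37.5% called), of 4 mast cell and basophil markers 0 and 1, and of 8 endothelial and stromal markers 0 and 1. The lower megakaryocyte calls fell to 0 without Rb KO 2 or E2f8 KO 1 or 2 and to 1 without E2f8 KO 3 or Rb KO 3, and the mast cell call to 0 without any 1 of these 5. Of 7 early progenitor markers 1 was higher and 4 were lower (71.4% called; 2 lower without any 1 array labelled E2f8 KO, 1 without Rb KO 2 or 3). Of 10 early erythroid markers 4 were higher and 1 lower (2 higher without E2f8 KO 1 or Rb KO 2 or 3). The lower one lost its call without any 1 of the compared arrays other than Rb KO 1.

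Granulocyte markers went the other way. All 18 measured genes had a difference above 0, with a median of 1.52, and in 17 of them the 3 arrays labelled E2f8 KO lay above all 3 labelled Rb KO (24.7% of all genes did so in this direction). The test called 6 of the 18 (33.3%, against 12.2% of all genes called higher). S100a8, a subunit of the neutrophil protein calprotectin, had 9.74, 9.82 and 9.25 under the E2f8 KO label and 6.90, 6.68 and 7.36 under the Rb KO label, a difference of 2.62 ± 0.78 (adjusted p = 0.0251). Its partner S100a9 differed by 2.56 ± 0.72 (adjusted p = 0.0197), and Ngp, a granule protein of immature neutrophils, by 1.87 ± 0.61 (adjusted p = 0.0376). The mean signal of the list was 8.23, 8.33 and 7.89 against 6.73, 6.65 and 6.75, with no overlap. The calls are not stable: 0 genes were called without E2f8 KO 1 or 2 or Rb KO 2, 1 without Rb KO 3, 2 without E2f8 KO 3, and 3 without WT 1 or 3. There were 11 and 16 without DKO 1 and 3. The DKO arrays, whose list means were 6.72, 7.76 and 9.94, enter the shared estimate of the spread.

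**Figure D2:**
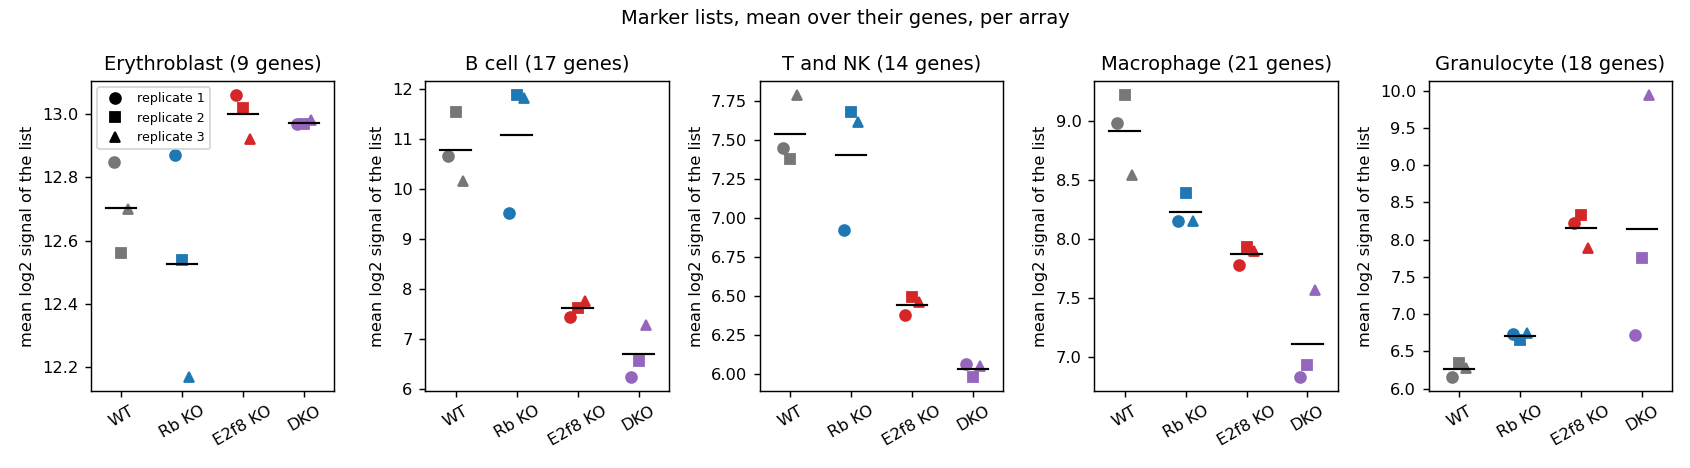
Mean log2 signal over the genes of 5 marker lists (vertical axis) in each of the 12 arrays by genotype label, with bars at the group means and symbols for the replicates. B cell and T and NK cell markers are lower and granulocyte markers higher in the arrays labelled E2f8 KO than in those labelled Rb KO, and Rb KO 1 has the lowest B cell mean of its group, 9.51.

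Promoters of cell cycle genes among the higher genes were searched for the letters of E2F sites, because both labels name proteins that act through such sites. The search used TTTCCCGC and TTTGGCGC on both strands, in the 250 bases before and 50 after the start of each gene in RefSeq (GRCm38.p6). A match was present in 3.27% of the 10317 tested genes with a promoter sequence, in 5.93% of higher genes (75 of 1264) and in 2.10% of lower genes (34 of 1621). The following windows are those of the called cell cycle genes with the smallest p-values that held a match, and of E2f7. They were chosen after the values were seen, run 5′ to 3′ on the gene's strand, and show the match in capitals.
Cdk2, chr10:128705148-128705227, minus strand: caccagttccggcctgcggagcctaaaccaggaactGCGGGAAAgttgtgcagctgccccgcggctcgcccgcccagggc
Ncapd2, chr6:125191551-125191630, minus strand: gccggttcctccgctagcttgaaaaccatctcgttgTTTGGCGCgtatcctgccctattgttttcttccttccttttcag
Kif18a, chr2:109280692-109280771, plus strand: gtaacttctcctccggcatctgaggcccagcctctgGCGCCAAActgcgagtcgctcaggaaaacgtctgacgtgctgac
Cdc25a, chr9:109875476-109875555, plus strand: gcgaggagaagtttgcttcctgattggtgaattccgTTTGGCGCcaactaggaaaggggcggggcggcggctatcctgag
E2f7, chr10:110745205-110745284, plus strand: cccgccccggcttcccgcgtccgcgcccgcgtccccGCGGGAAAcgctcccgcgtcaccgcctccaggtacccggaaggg
The match begins at position -140 relative to the annotated start in Cdk2, -8 in Ncapd2, -10 in Kif18a, -67 in Cdc25a and -198 in E2f7. It is a description of the letters in this window, not a mapped binding site.

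The network around Rb and the E2Fs was mostly higher where called. Of 21 measured members 12 were higher and 2 lower, against 12.2% and 15.6% of all genes, with a median difference of 0.55. These counts include the targeted genes themselves, E2f8 among the higher and Rb1 among the lower. The largest difference was that of Mybl1, which encodes the transcription factor A-Myb: it had 10.02, 10.22 and 10.28 under the E2f8 KO label and 8.28, 7.59 and 7.04 under the Rb KO label, a difference of 2.54 ± 0.31 (adjusted p = 0.000493) or 5.81-fold. The arrays labelled E2f8 KO were tight and lay above every array labelled Rb KO, of which replicate 3 was lowest. Foxm1, a transcription factor for mitotic genes, had 11.05, 11.12 and 10.93 under the E2f8 KO label and 10.47, 9.90 and 9.31 under the Rb KO label, a difference of 1.14 ± 0.23 (adjusted p = 0.00483). Genes of the MuvB core, which assembles with Rb family proteins or with B-Myb, were higher throughout, with Lin54 at 1.30 ± 0.21 (adjusted p = 0.00174), Lin9 at 1.11 ± 0.32 (adjusted p = 0.0218), Lin52 at 0.63 ± 0.17 (adjusted p = 0.0146), Lin37 at 0.55 ± 0.16 (adjusted p = 0.0207) and Rbbp4 at 0.75 ± 0.12 (adjusted p = 0.00182).

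Among the E2F genes the repressors E2f6 and E2f7 were higher, by 1.43 ± 0.37 (adjusted p = 0.013) and 0.94 ± 0.25 (adjusted p = 0.0139). E2f7 had 11.18, 11.08 and 11.10 under the E2f8 KO label and 10.63, 10.37 and 9.53 under the Rb KO label, so that Rb KO 1 came nearest to the other group. E2f4, a repressor that works with pocket proteins, and E2f2, an activator prominent in erythroblasts, were higher by 0.47 ± 0.15 (adjusted p = 0.032) and 0.41 ± 0.12 (adjusted p = 0.0245). The activators E2f1 and E2f3 were not called, with differences of -0.07 ± 0.23 (adjusted p = 0.837) and -0.40 ± 0.29 (adjusted p = 0.331). Rbl2, the Rb relative p130, was lower, with 7.70, 7.76 and 7.76 under the E2f8 KO label and 8.28, 8.66 and 8.78 under the Rb KO label, a difference of -0.83 ± 0.19 (adjusted p = 0.00788). Rbl1, the relative p107, was not called at 0.52 ± 0.22 (adjusted p = 0.0951). The number of higher members was 5 without E2f8 KO 1 or Rb KO 3, 7 and 6 without E2f8 KO 2 and 3, and 15 without Rb KO 1. The median was 0.34 without Rb KO 3.

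Regulators of entry into S phase were also higher, while the D cyclins were not. Of 22 genes 12 were higher and 2 lower (63.6% called, against 27.7% of all genes), with a median of 0.55. Skp2, the ubiquitin ligase subunit that marks the Cdk inhibitor p27 for destruction, had 10.57, 10.42 and 10.42 under the E2f8 KO label and 9.36, 8.90 and 8.29 under the Rb KO label. Its difference was 1.62 ± 0.26 (adjusted p = 0.00152), and the groups were well apart. Cdk2, the S phase kinase whose promoter is printed above, had 11.67, 11.68 and 11.71 under the E2f8 KO label and 10.79, 10.39 and 9.87 under the Rb KO label, a difference of 1.34 ± 0.22 (adjusted p = 0.0018). Its partner Ccne2, cyclin E2, was higher by 1.62 ± 0.28 (adjusted p = 0.00226), and Fbxo5, the inhibitor of the anaphase-promoting complex, by 1.40 ± 0.26 (adjusted p = 0.00309). Cdkn1b, which encodes p27 itself, was higher too, by 0.53 ± 0.14 (adjusted p = 0.0139). The lower pair were the D cyclin genes Ccnd1 (-0.69, adjusted p = 0.0231) and Ccnd2 (-0.77, adjusted p = 0.022), named because they were the only ones called lower on the list. B cells also express Ccnd2, and that part was not tested. Leaving out any 1 array left 10 to 12 higher genes on this list. The lower calls are less secure, with 0 left without E2f8 KO 2 or Rb KO 2 or 3 and 1 without E2f8 KO 1 or 3.

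Genes of the replication machinery behaved less uniformly. Of 54 measured, 12 (22.2%) were higher, against 12.2% of all genes, and 0 lower, with a median of 0.28. Pold2, a subunit of DNA polymerase delta, had 11.46, 11.34 and 11.56 under the E2f8 KO label and 10.66, 10.46 and 9.90 under the Rb KO label, a difference of 1.11 ± 0.20 (adjusted p = 0.00248). Cdc7, the kinase that fires replication origins, was higher by 1.29 ± 0.26 (adjusted p = 0.00422), and Rpa2, which coats single-stranded DNA, by 1.15 ± 0.23 (adjusted p = 0.00419). Gmnn, or geminin, which blocks the reloading of origins, was higher by 1.10 ± 0.23 (adjusted p = 0.00533). In all 4 the arrays labelled E2f8 KO lay above those labelled Rb KO. The sliding clamp gene Pcna (0.40 ± 0.16 (adjusted p = 0.0729)) and the helicase subunit genes Mcm5 (0.14 ± 0.16 (adjusted p = 0.526)) and Mcm7 (0.30 ± 0.17 (adjusted p = 0.203)) were not called. Without Rb KO 1 the higher count was 28 and the median 0.55. Without Rb KO 3 there were 8 higher and 1 lower, with a median of 0.04. E2F letters were found in 14 of the 33 promoters of replication genes that were not called (42.4%), and in 0 of the 11 of those that were higher.

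The DKO arrays differed from WT at more of these replication genes. Of the 54, 48 were higher and 0 lower in DKO against WT, where 20.6% and 17.6% of all genes were, and the median was 1.27. That comparison shares no array with the one described here. Nucleotide and folate genes gave 8 higher and 2 lower of 28 (35.7% called, against 27.7% of all genes). In DKO against WT the counts were 16 and 2. Dctpp1, which degrades non-standard deoxycytidine triphosphates, had 10.62, 10.72 and 10.58 under the E2f8 KO label and 9.34, 8.72 and 8.22 under the Rb KO label, a difference of 1.88 ± 0.23 (adjusted p = 0.000493). Mthfd2, a mitochondrial folate enzyme, was higher by 1.73 ± 0.22 (adjusted p = 0.000599), and Tk1, thymidine kinase, by 0.81 ± 0.19 (adjusted p = 0.00796). Ctps2, one of a pair of CTP synthases, was lower at -1.90 ± 0.43 (adjusted p = 0.00731). The higher count of this list was 3 without Rb KO 2 or 3, 4 without E2f8 KO 1 or 2 and 5 without E2f8 KO 3. The lower count was 4 without Rb KO 1 and 1 without any 1 of the other 5 arrays compared.

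Mitotic genes were higher almost throughout. Of 55 measured, 46 were higher (83.6%, against 12.2% of all genes) and 0 lower. All 55 had a difference above 0, with a median of 1.07. Cdca3, which promotes entry into mitosis, had 11.61, 11.45 and 11.53 under the E2f8 KO label and 10.24, 9.79 and 9.47 under the Rb KO label, a difference of 1.69 ± 0.26 (adjusted p = 0.0013). Cenpf, a kinetochore protein, had 10.41, 10.34 and 10.28 under the E2f8 KO label and 9.23, 9.01 and 8.0 under the Rb KO label, a difference of 1.60 ± 0.25 (adjusted p = 0.00155). For both, Rb KO 3 was the lowest array and replicate 1 the nearest to the other group. Ect2, needed to set up the cleavage furrow, was higher by 1.16 ± 0.21 (adjusted p = 0.00257), Ncapd2, a condensin subunit, by 1.04 ± 0.21 (adjusted p = 0.00447), and Kif11, the motor that separates spindle poles, by 1.07 ± 0.25 (adjusted p = 0.00763). Among the members with the highest signals the differences were small: cyclin B2, encoded by Ccnb2, was higher by 0.60 ± 0.15 (adjusted p = 0.0117) and the spindle protein gene Nusap1 by 0.31 ± 0.10 (adjusted p = 0.0359). The count of higher genes stayed between 32 and 53 when any 1 array was left out. In DKO against WT 47 of the 55 were higher and 0 lower, with a median of 0.96.

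Histone genes and genes of the DNA damage response moved to different extents. Of 19 histone genes measured, 13 were higher (68.4%, against 12.2% of all genes) and 0 lower, with a median of 0.69. H2ax, the variant phosphorylated at DNA breaks, had 12.55, 12.42 and 12.60 under the E2f8 KO label and 11.41, 10.78 and 10.53 under the Rb KO label, a difference of 1.62 ± 0.21 (adjusted p = 0.000599). The linker histone genes H1f3 and H1f2 were higher by 1.10 ± 0.21 (adjusted p = 0.00323) and 1.15 ± 0.23 (adjusted p = 0.00438). H2bc4 was higher by 1.25 ± 0.19 (adjusted p = 0.00117), whereas in DKO against WT its difference was -1.12 ± 0.19 (adjusted p = 0.000573). Histone genes of 1 family are near copies, so a probe set may read more than the gene it names. The count was 5 without E2f8 KO 1 and equally without Rb KO 2 or 3. Of 31 DNA damage and repair genes 8 were higher and 1 lower, and the called share of 29.0% was near the 27.7% of all genes. Of all genes 12.2% were called higher and 15.6% lower, so the calls of this list leaned to the higher side. The higher ones were led by H2ax, then Etaa1 (1.37 ± 0.30 (adjusted p = 0.00588)), an activator of the kinase ATR, and Fancm (1.22 ± 0.26 (adjusted p = 0.00545)), a helicase of the Fanconi pathway. The higher count of this list was 15 without Rb KO 1, 5 without E2f8 KO 3, and 4 without any 1 of the other 4 arrays compared, and the lower count was 2 without Rb KO 1 and 0 without any 1 of the other 5.

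Several targets of p53 were higher in the arrays labelled E2f8 KO. Of 29 measured, 15 were higher and 3 lower (62.1% called, against 27.7% of all genes), with a median of 0.52. Eda2r, a receptor of the tumour necrosis factor family, had 7.08, 7.34 and 7.70 under the E2f8 KO label and 5.37, 5.33 and 5.26 under the Rb KO label. The difference was 2.05 ± 0.20 (adjusted p = 0.00015), a 4.14-fold step between groups that do not overlap, and the 3 WT arrays stood at 5.24, 5.18 and 5.45 and the DKO arrays at 9.40, 9.46 and 10.10. Phlda3, which restrains Akt, had 10.16, 10.46 and 10.53 under the E2f8 KO label and 8.86, 8.46 and 7.72 under the Rb KO label, a difference of 2.03 ± 0.24 (adjusted p = 0.000436). Trp53inp1, a cofactor of p53, was higher by 1.33 ± 0.15 (adjusted p = 0.000315), the nuclease gene Aen by 1.12 ± 0.17 (adjusted p = 0.0012), cyclin G1, encoded by Ccng1, by 1.21 ± 0.20 (adjusted p = 0.00186) and the phosphatase gene Ppm1d by 0.87 ± 0.16 (adjusted p = 0.00313). The 3 lower members were Mdm4, an inhibitor of p53, Rrm2b, a ribonucleotide reductase subunit, and Xpc, a nucleotide excision repair protein, at -0.94, -0.60 and -0.49. These were named because they are the exceptions. With 1 array left out, 11 to 15 were higher, and the lower count was 1 without E2f8 KO 1 or 2 and 0 without Rb KO 2 or 3. Trp53 and Cdkn1a themselves were not analysed here.

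In the Bcl2 family, members of both kinds were called. Of 16 genes 3 were higher and 6 lower (56.2% called, against 27.7% of all genes). The higher ones act towards cell death, but so do 4 of the lower ones. Bcl2l11 (Bim) had 9.88, 9.80 and 9.86 under the E2f8 KO label and 8.67, 8.62 and 8.57 under the Rb KO label, a difference of 1.23 ± 0.15 (adjusted p = 0.000499), Bbc3 (Puma) differed by 1.27 ± 0.22 (adjusted p = 0.00238) and Bik by 0.48 ± 0.15 (adjusted p = 0.0362). Bcl2l1, whose product Bcl-xL keeps late erythroblasts alive, was lower, with 11.66, 11.64 and 11.50 under the E2f8 KO label and 12.38, 12.16 and 12.57 under the Rb KO label and a difference of -0.77 ± 0.13 (adjusted p = 0.00213). Bcl2, the founding survival gene of the family, had 7.26, 7.27 and 7.25 under the E2f8 KO label and 8.44, 10.73 and 10.97 under the Rb KO label, a difference of -2.79 ± 0.50 (adjusted p = 0.00258). B cells express Bcl2, its signal in Rb KO 1 lay between the groups as those of B cell markers did, and the part of B cells in it was not tested. Lower members numbered 3 without E2f8 KO 2 or Rb KO 2 or 3. The other lower members also act towards cell death: Bid at -0.86, Bmf at -0.59, and Bnip3 and Bnip3l, which also serve the removal of mitochondria, at -0.72 and -0.30. These and Bik were named as the remaining called members.

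**Figure D3:**
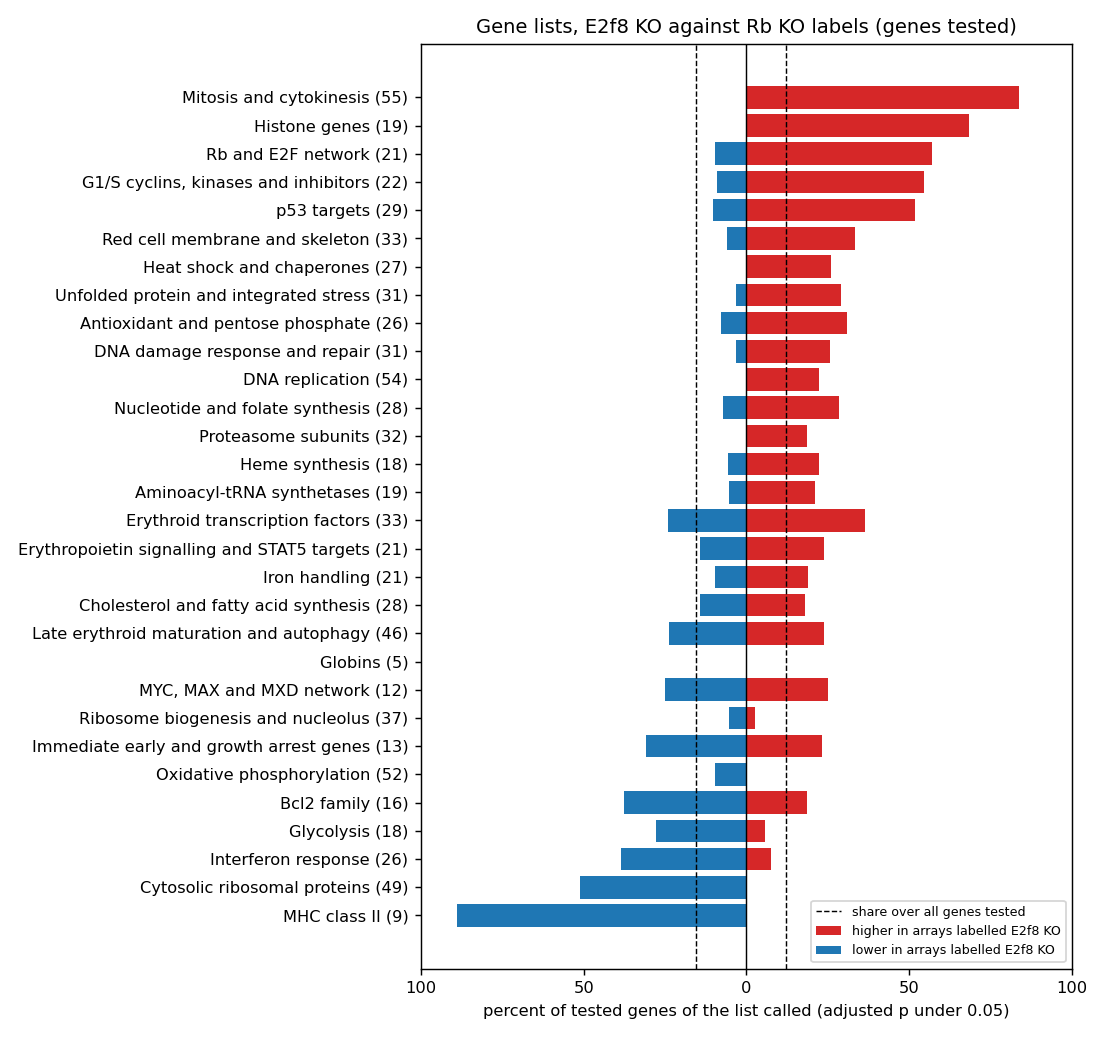
Share of the tested genes of 30 pathway lists called higher (red, to the right) and lower (blue, to the left) in the arrays labelled E2f8 KO than in those labelled Rb KO, in percent, with the number of genes tested in brackets. Dashed lines mark the shares over all genes tested, 12.2% higher and 15.6% lower; mitotic genes reach the largest higher share and MHC class II genes the largest lower share.

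Erythroid transcription factors split into a higher and a lower group. Of 33 genes 12 were higher and 8 lower (60.6% called, against 27.7% of all genes). Gfi1b, a repressor needed for red cell formation, had 13.24, 13.16 and 13.17 under the E2f8 KO label and 12.56, 12.46 and 11.91 under the Rb KO label, a difference of 0.88 ± 0.14 (adjusted p = 0.00176). Lyl1, a relative of the blood factor Tal1, was higher by 1.04 ± 0.13 (adjusted p = 0.000545), and Nr3c1, the glucocorticoid receptor that prolongs the division of erythroid progenitors, by 0.99 ± 0.17 (adjusted p = 0.00193). Myb, a factor of dividing progenitors, had 8.89, 8.83 and 8.85 under the E2f8 KO label and 7.89, 7.53 and 7.30 under the Rb KO label, a difference of 1.29 ± 0.26 (adjusted p = 0.0046), and Gata1, the main erythroid factor, differed by 0.68 ± 0.22 (adjusted p = 0.0329). Klf1, the activator of beta globin, was not called at 0.47 ± 0.20 (adjusted p = 0.11). The lower members were Spi1, Bcl11a, Etv6, Hhex, Ldb1, Ikzf1, Kit and Runx1, with differences from -1.78 to -0.57. Kit is a receptor and not a transcription factor, but the list and its counts include it. All 8 were named after their values were seen. Spi1, Bcl11a and Ikzf1 are also known for their part in B cells, and this was not tested. Lower members numbered 2 without E2f8 KO 1 or 2, 3 without E2f8 KO 3, and 1 without Rb KO 2 or 3.

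The erythropoietin receptor was among the higher genes. Epor had 12.22, 12.16 and 12.08 under the E2f8 KO label and 11.46, 11.08 and 10.36 under the Rb KO label, a difference of 1.19 ± 0.21 (adjusted p = 0.0026) or 2.28-fold, and Rb KO 1 was again the nearest to the other group. Of 21 genes of erythropoietin signalling 5 were higher and 3 lower (5 lower without Rb KO 1), a called share of 38.1% against 27.7% of all genes. Erfe, or erythroferrone, the hormone by which erythroblasts raise iron supply, was higher by 1.05 ± 0.21 (adjusted p = 0.00394). Pim1, a survival kinase induced by STAT5, was higher by 0.37 ± 0.10 (adjusted p = 0.0164). The transferrin receptor Tfrc, the antigen of the sort gate, had 13.09, 12.95 and 12.84 under the E2f8 KO label and 12.83, 12.27 and 11.73 under the Rb KO label, a difference of 0.68 ± 0.21 (adjusted p = 0.0286). A gene used to sort the cells is no independent marker.

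Membrane and skeleton genes of the red cell were higher where called, apart from 2. Of 33 genes 11 were higher and 2 lower (39.4% called, against 27.7% of all genes), with a median of 0.34. Tspo2, an erythroid protein of cholesterol handling, had 11.69, 11.64 and 11.83 under the E2f8 KO label and 10.44, 9.18 and 9.05 under the Rb KO label, a difference of 2.16 ± 0.37 (adjusted p = 0.00205). Its WT signals were 10.03, 11.32 and 10.14, so that WT 2 came close to the arrays labelled E2f8 KO. Tspan33, a tetraspanin of erythroblasts, was higher by 0.87 ± 0.15 (adjusted p = 0.00225), ankyrin, encoded by Ank1, by 0.55 ± 0.11 (adjusted p = 0.00356) and Rhd of the Rh complex by 0.64 ± 0.17 (adjusted p = 0.0171). The lower ones were Mpp1, a membrane scaffold, at -0.70 ± 0.13 (adjusted p = 0.0026), and the glucose transporter gene Slc2a1 with 7.19, 7.59 and 6.97 under the E2f8 KO label and 8.24, 10.44 and 10.25 under the Rb KO label, a difference of -2.39 ± 0.49 (adjusted p = 0.0047). The anion exchanger Slc4a1 was not called at 0.10 ± 0.06 (adjusted p = 0.213). The higher count was 22 without Rb KO 1, 6 without E2f8 KO 2, and 4 without E2f8 KO 1 or Rb KO 2 or 3. Without Rb KO 3 the median was 0.16, and after centring 7 were higher. The letters AGATAA, the core of sites bound by Gata1, occurred on either strand in RefSeq promoters of this list in 9 of 26 (34.6%), against 8.06% of all, 6.57% of higher and 8.88% of lower genes.

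Heme and iron genes were called at about the share of all genes (27.7%), 27.8% and 28.6%. Of all genes 12.2% were called higher and 15.6% lower. Of 18 heme genes 4 were higher and 1 lower, and 2 and 3 after centring each array on its median. Ppox and Cpox, which make the last porphyrin steps before iron is inserted, were higher by 0.82 ± 0.20 (adjusted p = 0.00947) and 0.66 ± 0.18 (adjusted p = 0.0193). Hmox2, a heme oxygenase, was lower, with a difference of -1.08 ± 0.26 (adjusted p = 0.00943). Alas2 was not called at -0.20 ± 0.07 (adjusted p = 0.053). The higher count was 9 without Rb KO 1, 1 without Rb KO 2 or 3 or E2f8 KO 1 or 2, and 2 without E2f8 KO 3, WT 3 or DKO 2. The lower count was 3 without WT 1. Of 21 iron genes 4 were higher and 2 lower (7 higher without Rb KO 1 and 2 without Rb KO 2 or 3). Ncoa4, which delivers ferritin for breakdown, and Iscu, the scaffold of iron-sulfur clusters, were lower at -0.56 ± 0.11 (adjusted p = 0.00348) and -0.72 ± 0.15 (adjusted p = 0.0047). None of the 5 minor globin genes measured was called by limma, with differences from -0.38 (Hbb-bh2) to 0.40 (Hbq1b). At an unadjusted p under 0.05 in limma there were 2, Hbb-bh2 and Hbq1b.

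Genes of late maturation went both ways in equal number, 11 higher and 11 lower of 46 (47.8% called). Of all genes 27.7% were called, 12.2% higher and 15.6% lower. Plek2, a pleckstrin family protein that acts downstream of erythropoietin, had 12.29, 12.26 and 12.20 under the E2f8 KO label and 10.13, 9.90 and 9.45 under the Rb KO label. Its difference of 2.43 ± 0.19 (adjusted p = 4.38e-05), or 5.38-fold, had one of the smallest p-values of the comparison, and the groups lay far apart. On the lower side stood Bpgm, which makes the hemoglobin ligand 2,3-bisphosphoglycerate, with 11.82, 11.64 and 11.43 under the E2f8 KO label and 12.90, 12.92 and 13.18 under the Rb KO label and a difference of -1.37 ± 0.17 (adjusted p = 0.000499). Ube2h, a ubiquitin-conjugating enzyme induced late in red cell formation, had 11.75, 11.54 and 11.65 under the E2f8 KO label and 12.91, 12.63 and 12.88 under the Rb KO label, a difference of -1.16 ± 0.15 (adjusted p = 0.000674). The ubiquitin ligase gene Rnf10 and Tent5c, a poly(A) polymerase, were lower at -0.69 ± 0.09 (adjusted p = 0.000707) and -0.50 ± 0.09 (adjusted p = 0.00301), and so was Cat, catalase, at -0.79 ± 0.11 (adjusted p = 0.00107). Bpgm and Ube2h were also lower in DKO against WT, at -2.11 ± 0.17 (adjusted p = 5.06e-06) and -1.85 ± 0.15 (adjusted p = 6.14e-06). The higher count was 18 without Rb KO 1 and 7 without Rb KO 2 or 3 or E2f8 KO 1.

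Stress genes were higher where called, with 1 exception. Called shares were 32.3% of unfolded protein and integrated stress genes, 25.9% of heat shock genes and 18.8% of proteasome genes. Of all genes 27.7% were called, 12.2% higher and 15.6% lower. The heat shock and proteasome calls were all higher, so their shares are to be read against the 12.2%. In the unfolded protein and integrated stress list 9 of 31 were higher and 1 lower (4 lower without Rb KO 1 and 0 without Rb KO 2 or 3 or E2f8 KO 1 or 3). Ddit3, the stress transcription factor CHOP, had 9.52, 9.27 and 9.38 under the E2f8 KO label and 8.05, 7.57 and 7.34 under the Rb KO label, a difference of 1.74 ± 0.22 (adjusted p = 0.000539). Chac1, a glutathione-degrading enzyme downstream of ATF4, was higher by 1.73 ± 0.33 (adjusted p = 0.00356), and the chaperone gene Dnajb9 by 0.90 ± 0.17 (adjusted p = 0.00309). Of 27 heat shock and chaperone genes 7 were higher and 0 lower, among them Dnajb1 (1.52 ± 0.25 (adjusted p = 0.00182)) and Hsp90aa1 (1.14 ± 0.23 (adjusted p = 0.0047)). This count was 3 without E2f8 KO 2 or Rb KO 2 or 3 and 4 without E2f8 KO 3. After centring it was 3. Of 32 proteasome subunits 6 were higher and 0 lower, led by Psma7 (1.07 ± 0.21 (adjusted p = 0.00438)). That count was 18 without Rb KO 1 and 2 without any 1 of the other 5 arrays, and after centring 3 were higher and 1 lower.

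Ribosomal protein genes were lower in the arrays labelled E2f8 KO. Of 49 cytosolic ribosomal protein genes 25 were lower (51.0%, against 15.6% of all genes) and 0 higher. All 49 had a difference below 0, with a median of -0.36. Rps28, a protein of the small subunit, had 10.52, 10.81 and 10.79 under the E2f8 KO label and 11.48, 11.51 and 11.63 under the Rb KO label, a difference of -0.84 ± 0.13 (adjusted p = 0.00156). Rps14, another small subunit gene, had 10.89, 10.97 and 11.09 under the E2f8 KO label and 11.62, 11.45 and 11.63 under the Rb KO label, a difference of -0.58 ± 0.12 (adjusted p = 0.0047). The steps are small, yet replicates of each label lay close together and the groups did not overlap. Rps20 and Rpl23 differed by -0.57 ± 0.12 (adjusted p = 0.0058) and -0.62 ± 0.13 (adjusted p = 0.00603). Rps6, among the brightest of the list, was not called at -0.11 ± 0.06 (adjusted p = 0.21). Ribosomal protein genes have many processed pseudogenes, which a probe set may also read. The count was 7 and 14 without E2f8 KO 1 and 2, and 13 and 16 without Rb KO 2 and 3. In DKO against WT 16 of the 49 were lower and 0 higher, with a median of -0.24.

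Genes of ribosome assembly gave few calls, with 1 higher and 2 lower of 37 (8.11% called, against 27.7% of all genes) and a median of -0.29. The higher one was the nucleolar gene Nop56 (0.73 ± 0.19 (adjusted p = 0.0144)) and the lower ones Ddx10 (-1.17 ± 0.31 (adjusted p = 0.0153)) and Heatr1 (-0.96 ± 0.31 (adjusted p = 0.0352)). The lower count was 14 without Rb KO 1 and 0 without Rb KO 2 or 3 or E2f8 KO 1. Nop56 lost its call without E2f8 KO 1 or 3, and the median was -0.17 without E2f8 KO 1. Myc, which drives ribosome production, had 8.13, 8.53 and 8.10 under the E2f8 KO label and 8.66, 9.66 and 9.72 under the Rb KO label, a difference of -1.10 ± 0.30 (adjusted p = 0.0168). Its antagonists Mxd3 and Mxi1 were higher, by 1.24 ± 0.19 (adjusted p = 0.00141) and 0.89 ± 0.15 (adjusted p = 0.00226), and Mlxip, a glucose-sensing relative, was lower at -2.0 ± 0.42 (adjusted p = 0.00536). Of the 12 genes of the MYC network 3 were higher and 3 lower. The lower members were 1 without E2f8 KO 1 or 3 or Rb KO 2 or 3. Of 19 aminoacyl-tRNA synthetase genes 4 were higher and 1 lower (26.3% called). Of all genes 27.7% were called, 12.2% higher and 15.6% lower. Gars differed by 0.95 ± 0.24 (adjusted p = 0.0128) and Cars by 0.87 ± 0.22 (adjusted p = 0.0128). The higher count was 1 without E2f8 KO 1 or Rb KO 3 and 2 without E2f8 KO 2. The lower count was 0 without any 1 of the compared arrays other than Rb KO 1.

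Metabolic genes showed some large single differences, and the called shares of their lists varied. Glrx, a glutaredoxin that reduces protein-bound glutathione, had 10.48, 10.31 and 10.51 under the E2f8 KO label and 12.75, 12.44 and 12.55 under the Rb KO label, a difference of -2.15 ± 0.15 (adjusted p = 1.23e-05), or 4.43-fold lower. The replicates of each label lay close together and far from the other label, and the adjusted p was among the smallest of all genes. Glutathione reductase, encoded by Gsr, was higher by 1.43 ± 0.20 (adjusted p = 0.000987). Of the 26 antioxidant and pentose phosphate genes 8 were higher and 2 lower (38.5% called, against 27.7% of all genes). The higher number was 13 without Rb KO 1 and 4 without Rb KO 2 or 3 or E2f8 KO 2 or 3. Insig1, which holds the sterol sensor in the endoplasmic reticulum, had 10.64, 10.49 and 10.63 under the E2f8 KO label and 8.72, 8.93 and 8.38 under the Rb KO label, a difference of 1.91 ± 0.19 (adjusted p = 0.000153). The cholesterol enzyme genes Fdft1 and Sqle were higher by 1.53 ± 0.19 (adjusted p = 0.000539) and 1.64 ± 0.32 (adjusted p = 0.00378), while the fatty acid desaturase gene Scd1 was lower at -2.84 ± 0.42 (adjusted p = 0.00116). Of 28 cholesterol and fatty acid genes 5 were higher and 4 lower, a called share of 32.1%. These counts were 3 and 2 without E2f8 KO 1 or Rb KO 2 or 3, 3 higher without E2f8 KO 3 and 2 lower without E2f8 KO 2.

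In glycolysis 1 gene was higher and 5 were lower of 18 (3 and 8 without Rb KO 1), a called share of 33.3% against 27.7% of all genes. The higher count was 0 without any 1 of the other 5 arrays compared and 2 without DKO 3. The lower ones include Slc2a1 and Bpgm above, the hexokinase gene Hk1 (-0.48 ± 0.12 (adjusted p = 0.00964)) and the phosphofructokinase gene Pfkp (-1.12 ± 0.27 (adjusted p = 0.00962)). The higher one was the lactate transporter gene Slc16a1 (0.64 ± 0.19 (adjusted p = 0.0277)). Oxidative phosphorylation genes gave 0 higher and 5 lower of 52, with a median of 0.02, so that their called share lay below that of all genes. Uqcrc2, a subunit of complex III, differed by -0.66 ± 0.14 (adjusted p = 0.00624). The lower count was 2 without E2f8 KO 1 or 2 and 3 without E2f8 KO 3, Rb KO 1 or 3, WT 1 or 2, or DKO 1 or 3. Without Rb KO 1 5 were higher.

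Interferon response genes were mostly lower where called, 10 of 26 against 2 higher (5 higher without Rb KO 1). The called share was 46.2%, against 27.7% of all genes. Tap1, a peptide transporter for MHC class I loading, had 7.48, 8.18 and 7.94 under the E2f8 KO label and 9.76, 9.56 and 9.52 under the Rb KO label, a difference of -1.75 ± 0.23 (adjusted p = 0.000599). The immunoproteasome gene Psmb8 and the RNA sensor gene Ddx58 were lower at -1.63 ± 0.30 (adjusted p = 0.0027) and -2.34 ± 0.45 (adjusted p = 0.00357). Leukocytes express these genes, and the part of leukocyte RNA in them was not tested. The chemokine gene Cxcl10 was higher by 1.47 ± 0.18 (adjusted p = 0.000434), and Irf9, part of the interferon-induced transcription factor complex, by 0.92 ± 0.20 (adjusted p = 0.00577). Among immediate early and growth arrest genes, the antiproliferative gene Tob1 and the phosphatase gene Dusp1 were higher by 1.09 ± 0.21 (adjusted p = 0.00369) and 1.13 ± 0.23 (adjusted p = 0.00449). Zfp36, which destabilises cytokine messages, was lower at -2.63 ± 0.59 (adjusted p = 0.0072). Of 13 such genes 3 were higher and 4 lower (53.8% called, against 27.7% of all genes). The lower count was 2 without E2f8 KO 2 and 1 without E2f8 KO 3 or Rb KO 2 or 3.

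Of 98 microRNA genes measured, the host gene Mir17hg included, 13 were higher (13.3%, against 12.2% of all genes) and 1 lower (1.02%, against 15.6%). Mature sequences follow for the microRNAs with the smallest p-values, for the erythroid pair Mir144 and Mir451a and for Mir142, the lower one, from RefSeq (GRCm38.p6), 5′ to 3′ with the seed (bases 2 to 8) in capitals. They are shown because the seed sets which messages a microRNA can pair with, and because miR-15a-5p and miR-16-5p share theirs. The arms were chosen after the values were seen, and a probe set named for the gene may read the precursor.
miR-18a-5p, from Mir18, chr14:115043867-115043889, plus strand: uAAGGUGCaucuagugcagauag
miR-15a-5p, from Mir15a, chr14:61632075-61632096, minus strand: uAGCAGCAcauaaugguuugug
miR-16-5p, from Mir16-1, chr14:61631936-61631957, minus strand: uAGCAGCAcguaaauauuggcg
miR-505-3p, from Mir505, chrX:60394416-60394437, minus strand: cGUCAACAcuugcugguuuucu
miR-687, from Mir687, chr14:73206808-73206829, minus strand: cUAUCCUGgaaugcagcaauga
miR-144-3p, from Mir144, chr11:78073047-78073066, plus strand: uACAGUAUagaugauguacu
miR-451a, from Mir451a, chr11:78073186-78073207, plus strand: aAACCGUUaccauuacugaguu
miR-142a-3p, from Mir142, chr11:87756903-87756925, plus strand: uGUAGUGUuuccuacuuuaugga

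Mir18 lies in the cluster made from the host transcript Mir17hg, a known target of E2F and Myc. Mir18 had 7.0, 7.39 and 7.12 under the E2f8 KO label and 5.34, 4.86 and 5.13 under the Rb KO label, a difference of 2.06 ± 0.18 (adjusted p = 0.000109). Mir17hg had 6.57, 6.41 and 6.67 under the E2f8 KO label and 5.28, 5.36 and 5.33 under the Rb KO label, a difference of 1.23 ± 0.13 (adjusted p = 0.000168). Host and microRNA were both higher. In every array labelled Rb KO or WT both lay below the filter level of 5.84. They passed the filter only through the arrays labelled E2f8 KO and DKO, so their p-values are no independent support. Mir15a and Mir16-1, which restrain the cell cycle, were higher by 2.51 ± 0.33 (adjusted p = 0.000644) and 1.33 ± 0.18 (adjusted p = 0.000653). Mir16-1 stood at 5.28, 5.48 and 5.52 under the Rb KO label, also below 5.84. Mir15a stood at 9.96, 10.52 and 10.09 against 8.14, 7.15 and 7.76, with the arrays labelled E2f8 KO first.

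Mir144 and Mir451a, erythroid microRNAs made from 1 transcript under Gata1, were higher by 1.92 ± 0.40 (adjusted p = 0.00489) and 1.03 ± 0.23 (adjusted p = 0.00709). Mir505 had 11.36, 11.15 and 11.28 under the E2f8 KO label and 8.36, 9.22 and 9.24 under the Rb KO label, a difference of 2.32 ± 0.24 (adjusted p = 0.000184). Mir142, the only lower one, is made in leukocytes. It had 6.74, 6.59 and 7.04 under the E2f8 KO label and 6.80, 9.49 and 9.57 under the Rb KO label, a difference of -1.83 ± 0.60 (adjusted p = 0.0391). Rb KO 1 lay inside the range of the arrays labelled E2f8 KO, and its B cell marker level was also the lowest of its group. The DKO arrays had Mir142 at 8.59, 8.89 and 7.93, with B cell list means of 6.25, 6.56 and 7.28. The part of leukocyte RNA in the Mir142 signal was not tested. Mir18, Mir505 and Mir15a were picked by the rule for the largest differences and smallest p-values, so by their values in this comparison. The other genes of this and the preceding paragraph were named after their values were seen.

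Among the genes with the largest differences or the smallest p-values were some that leukocyte markers, cell cycle and erythroid lists do not hold. Adgrg1, an adhesion receptor, had 9.21, 9.39 and 9.88 under the E2f8 KO label and 6.35, 6.46 and 6.59 under the Rb KO label, a difference of 3.03 ± 0.44 (adjusted p = 0.00113), while in DKO against WT it was lower at -1.46 ± 0.44 (adjusted p = 0.0195). It is 1 of 24 genes called in both comparisons in opposite directions. Tjp1, a scaffold of tight junctions, had 8.61, 8.13 and 8.76 under the E2f8 KO label and 6.46, 5.77 and 5.38 under the Rb KO label, a difference of 2.63 ± 0.26 (adjusted p = 0.000153). Sox12, a transcription factor, and the amino acid transporter gene Slc38a2 were higher by 1.96 ± 0.18 (adjusted p = 0.000142) and 1.52 ± 0.14 (adjusted p = 0.000142) with very small adjusted p-values. Ephx3, an epoxide hydrolase, and Irs2, an adaptor of insulin signalling, were higher by 2.31 ± 0.15 (adjusted p = 1.23e-05) and 1.45 ± 0.14 (adjusted p = 0.000151). On the lower side, Pla2g2d, a secreted phospholipase, differed by -2.70 ± 0.20 (adjusted p = 2.34e-05) and Septin1, a cytoskeletal GTPase of lymphocytes, by -2.63 ± 0.25 (adjusted p = 0.000142).

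The 2 largest differences of all and the largest higher one followed another pattern across the WT arrays. Gdpd3, a phosphodiesterase of lipid metabolism, had 6.92, 6.90 and 6.78 under the E2f8 KO label and 12.78, 12.90 and 13.39 under the Rb KO label, a difference of -6.16 ± 1.40 (adjusted p = 0.00745), or 71.5-fold lower. Its WT arrays were at 13.15, 5.85 and 13.45, so WT 2 lay with the arrays labelled E2f8 KO and the other 2 with those labelled Rb KO. The DKO arrays had Gdpd3 at 11.70, 10.84 and 10.99, nearer to those labelled Rb KO. Klk1b22, a kallikrein gene, had 5.21, 3.63 and 4.65 under the E2f8 KO label and 10.20, 10.69 and 10.83 under the Rb KO label, a difference of -6.08 ± 1.33 (adjusted p = 0.00624), with WT at 10.75, 3.76 and 10.68. Klk1b22 belongs to a family of near copies, so its probe set may read more than 1 gene.

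D17H6S56E-5 and Vars, the valyl-tRNA synthetase gene, are neighbours in RefSeq on chromosome 17 and moved alike. D17H6S56E-5 had 10.57, 10.57 and 10.86 under the E2f8 KO label and 7.80, 7.27 and 6.83 under the Rb KO label, a difference of 3.37 ± 0.54 (adjusted p = 0.00157), and stood at 7.58, 9.69 and 6.73 in WT. Vars had 10.90, 10.91 and 11.03 under the E2f8 KO label and 8.51, 8.67 and 8.42 under the Rb KO label, a difference of 2.42 ± 0.40 (adjusted p = 0.00182), and stood at 8.59, 10.30 and 8.18 in WT. In both, WT 2 was the highest WT array and nearest to the arrays labelled E2f8 KO. The DKO arrays stood at 8.21, 8.35 and 8.12 and 8.57, 9.17 and 8.82. Tap1 and the MHC class I gene H2-Q4 (-1.94 ± 0.23 (adjusted p = 0.000395)) lie on the same chromosome and were lower. H2-Q4 was named after its values were seen.

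**Figure D4:**
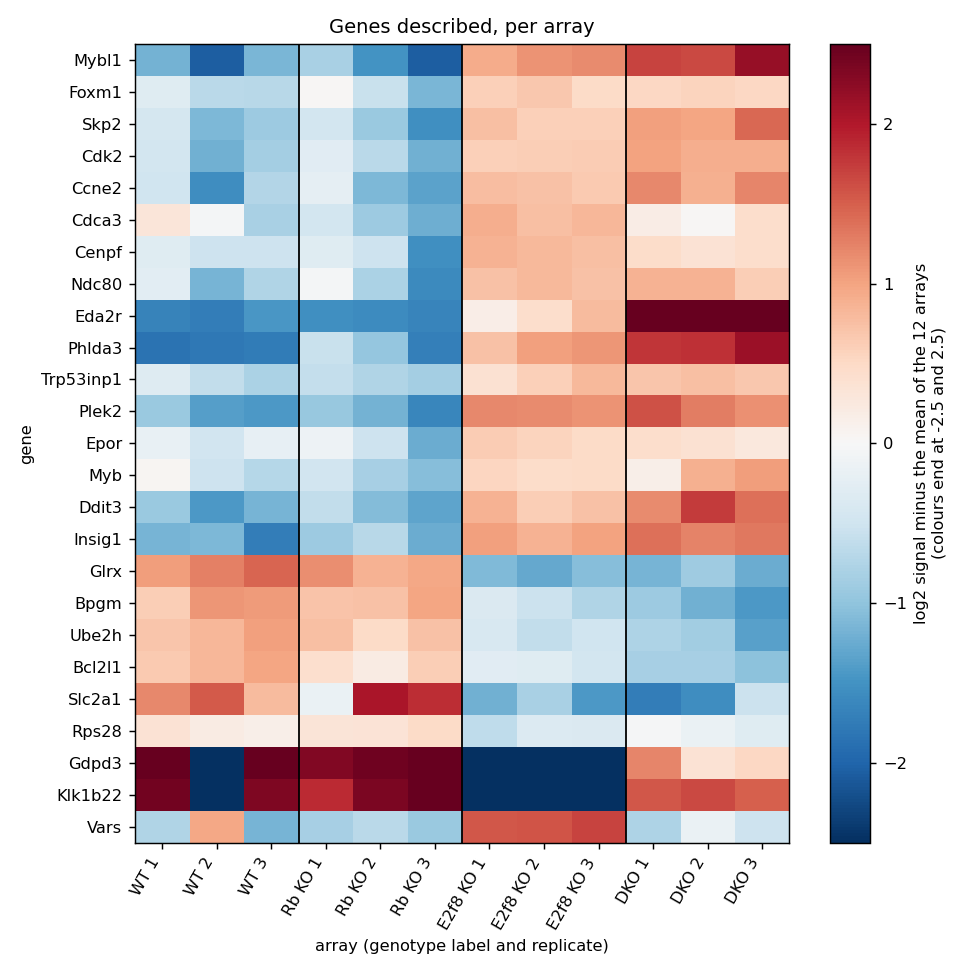
Log2 signal of 25 genes minus each gene's mean over the 12 arrays (colour, ending at -2.5 and 2.5) in every array (columns, by genotype label and replicate). Cell cycle, p53, stress and sterol genes are mostly above their mean in the arrays labelled E2f8 KO and DKO and mostly below it in those labelled WT and Rb KO. For Gdpd3, Klk1b22 and Vars, WT 2 lies on the side of the arrays labelled E2f8 KO. The DKO arrays lie on the side of those labelled Rb KO for these genes.

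The arrays left out of the direct comparison lay on opposite sides of it. At 3432 of the 3601 called genes (95.3%) the WT mean was nearer to the Rb KO mean than to the E2f8 KO mean, and at 3270 (90.8%) the DKO mean was nearer to the E2f8 KO mean. On a scale with the Rb KO mean at 0 and the E2f8 KO mean at 1, the median position was 0.097 for WT and 1.07 for DKO. DKO against WT called 4952 genes (38.2%), 2669 higher and 2283 lower. Of the genes higher in the arrays labelled E2f8 KO, 1187 (75.1%) were also higher in DKO against WT, where 20.6% of all genes were. Of those lower, 1408 (69.7%) were also lower, against 17.6% of all. The 2595 genes called in both in the same direction are 72.1% of the calls of the direct comparison and 52.4% of those of DKO against WT. Across all genes the differences correlated at Pearson r = 0.805 and Spearman rho = 0.707. Genes are not independent replicates, and B cell markers were lower in both comparisons, 17 of 17 in DKO against WT. Among the called genes, 1498 were at least 2-fold apart with no overlap of the groups. Of these, 120 had an unadjusted p over 0.05 in DKO against WT, 43 higher and 77 lower.

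**Figure D5:**
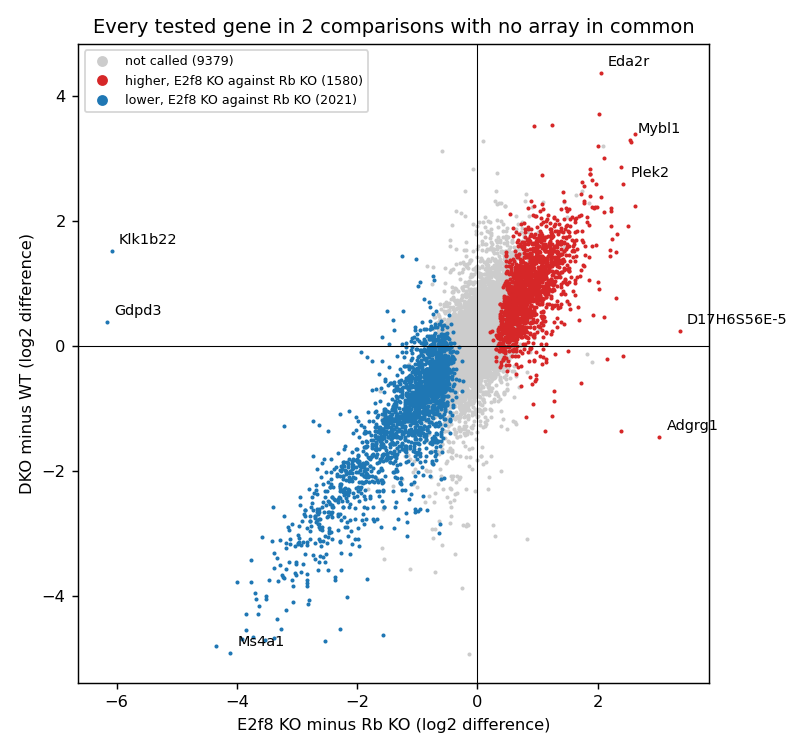
Log2 difference of E2f8 KO minus Rb KO (horizontal axis) and of DKO minus WT (vertical axis) for every tested gene, with called genes of the direct comparison in red (1580 higher) and blue (2021 lower) and the others in grey (9379). Most coloured points lie at the lower left and upper right; Gdpd3, Klk1b22 and Adgrg1 do not.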

How the data were processed

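RNA was measured on 12 single-channel Affymetrix arrays, 3 per genotype label. The deposited table holds 1 log2 signal per probe set and array, used as deposited. Its scale was inferred from values between 1.07 and 14.84. Per the submitters' processing notes the method was MAS5 (version not stated), and the sources used here give no background correction or normalization. Array medians lay between 6.22 and 6.35.

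Of 35557 probe sets, 21789 carry 1 gene symbol, 1621 several and 12147 none. Symbols were updated by gene number (21698 matched). The lowest 40% by mean signal were removed, below 5.84, and the brightest probe set represents each gene. This left 12980 genes. Several probe sets were kept for 684 genes, and of the 216 called ones among these, 14 had another probe set of opposite sign.

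All 12 arrays entered 1 fit in limma 3.58.1 (R 4.3.3), with 1 coefficient per label, a variance trend and 8 residual degrees of freedom. Tests were two-sided, with Benjamini-Hochberg adjustment over all genes of a comparison and calls at an adjusted p under 0.05. The median standard error was 0.184, and precision is limited by having 3 arrays a group. The fit was tested on simulated data.

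The arrays compared, the lists and the tests were chosen with earlier results of these data known. Named genes are the network list, the 15 largest differences and 10 smallest p-values each way, the leading and brightest members of each list, and the markers, with exceptions stated. Alternatives changed the filter, the scaling, the probe set rule, the variance model, the arrays in the fit and the threshold.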

Additional observations from a re-analysis of the deposited data

How the results depend on the processing

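The direct comparison called 3601 genes. It called 5886 with array weights, where replicate 1 of Rb KO had the lowest weight, 0.228. It called 1652 at an adjusted p under 0.01 and 1527 with an at least 2-fold difference. With 1 array left out the count lay between 1903 (without replicate 3 of Rb KO) and 5023 (without replicate 1 of Rb KO). DKO against WT called 4952 genes, 3255 at an adjusted p under 0.01 and 2347 with an at least 2-fold difference. Centring each array on its median gave 1242 higher and 2081 lower genes in the direct comparison, against 1580 and 2021 without it, and moved the median of all genes from 0.05 to 0.02.

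The Rb1 difference of -0.71 kept its direction in every refit, and its call at an adjusted p under 0.05. It falls short of the 2-fold threshold. The E2f8 difference of 0.63 kept its direction but missed the threshold after centring (0.59, adjusted p = 0.0532) and with only the 6 arrays compared in the fit (0.63, adjusted p = 0.0714). With 1 array left out it lay between 0.37 (without replicate 3 of Rb KO, adjusted p = 0.101) and 0.79 (without replicate 2 of Rb KO, adjusted p = 0.0219). The cause was not tested. Of 214 called named genes besides Rb1 and E2f8, 157 stayed called at an adjusted p under 0.05 in all 22 refits and 57 lost the call in at least 1.

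Samples share replicate numbers across labels. Deviations from the group means correlated at 0.181, 0.143 and 0.0729 for replicates 1, 2 and 3 of the compared labels, so the numbers were not taken as pairs. With the replicate block the count was 3658, 1571 higher and 2087 lower.

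The labels are uncertain, 1 of 3 arrays labelled Rb KO stands apart and 1 of 3 labelled E2f8 KO differs in Xist, and signals of leukocyte genes differ between the groups. With 3 arrays a group, a gene that missed the threshold is not shown to be equal in both.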
